A study of Mus musculus with 3 samples.

Results

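The fibroblast growth factor (FGF) genes described here were all gene symbols of the deposited feature list that read Fgf and a number, Fgfr1 to Fgfr4, Spry1 to Spry4 or Spred1 to Spred3, together with Dusp6, Etv4 and Etv5. The rule found 36 of 31054 features: 18 genes of secreted ligands, 4 genes of intracellular FGF homologous factors (Fgf11 to Fgf14), 4 receptors, 4 Sprouty genes, 3 Spred genes and the 3 genes Dusp6, Etv4 and Etv5. They were read in single-cell RNA-seq of 3 wild-type mouse embryos of C57BL/6 x 129 SvEv background at embryonic day 8, with 0 to 2 somites by the labels and 0 to 1 by the protocol, with 1 library per embryo and no treatment. Whole embryos were dissociated after the extraembryonic tissue had been removed, so extraembryonic cell types stand for what remained attached. All 3 embryos form 1 group, and the comparisons below are between lineages of the same embryos.

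FGF ligands bind receptor tyrosine kinases on neighbouring cells together with heparan sulphate, and the receptors signal through the RAS-MAPK cascade. The ETS factors Etv4 and Etv5, the phosphatase Dusp6 and the Sprouty and Spred proteins are induced by the cascade in many tissues, and Dusp6, the Sproutys and the Spreds dampen it. At the start of somite formation, FGF signals in the tail end of the embryo are known to keep progenitors of the trunk undifferentiated, and FGF8 and FGF10 are known from the heart-forming and pharyngeal region.

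The cells were placed in 19 lineages by marker genes alone. A marker counted as present when its share of the UMIs of a cell (unique molecular identifiers, each 1 captured transcript) was at least 2 times its mean share, and no FGF gene was a marker. Of 21595 cells kept, 12891 (59.7%) had enough markers for exactly 1 lineage, after fixed precedences such as left-right organizer over axial mesoderm. The names below stand for these marker gates and nothing more. Across 121 pairs of marker and lineage, 120 markers were higher inside their lineage than in the other lineages, the exception being Cyp26a1 in caudal epiblast. The gates pick cells by these same markers, so this was largely set in advance and is no test of the names. The smallest lineages were hindbrain neural plate (44 cells, with at least 10 cells in 2 embryos only) and primordial germ cells (74 cells). Erythroid cells were many in embryos 2 and 3 (846 and 310 cells), but embryo 1 had 1 such cell. The left-right organizer, the ciliated structure of pit and crown cells that the study set out to describe, had 223 cells. UMIs were summed per embryo and lineage, giving 55 sums of 276380 to 19710831 UMIs, and levels are given in CPM, the UMIs of a gene scaled to the same total in every sum. A gene at 0 in a sum could have had up to 3 counts, which is 0.152 CPM in the deepest and 10.9 CPM in the shallowest sum. Median UMIs per kept cell were 27635, 14615 and 16332.5, and 10 to 18 barcodes were shared between any 2 libraries. In midbrain neural plate the anterior neural plate markers summed to 190 to 232 CPM, above its own markers at 70.8 to 139 CPM. In axial mesoderm the 5 definitive endoderm markers not on its own list summed to 957 to 1499 CPM, above its own 5 at 666 to 856 CPM. Values of these 2 gates are to be read with this mixing in mind.

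Every one of the 36 genes had at least 1 UMI, and 21 reached a mean of 10 CPM in at least 1 lineage. These were Fgf3, Fgf4, Fgf5, Fgf8, Fgf10, Fgf15 and Fgf17 among the secreted ligands, Fgf13 among the homologous factors, all 4 receptors, Spry1, Spry2 and Spry4, all 3 Spred genes, and Etv4, Etv5 and Dusp6. The highest lineage means of the other 15 genes ran from 0 CPM (Fgf21, with 2 UMIs in all, none of them in an assigned cell) to 8.03 CPM (Fgf18 in primordial germ cells).

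**Figure D1:**
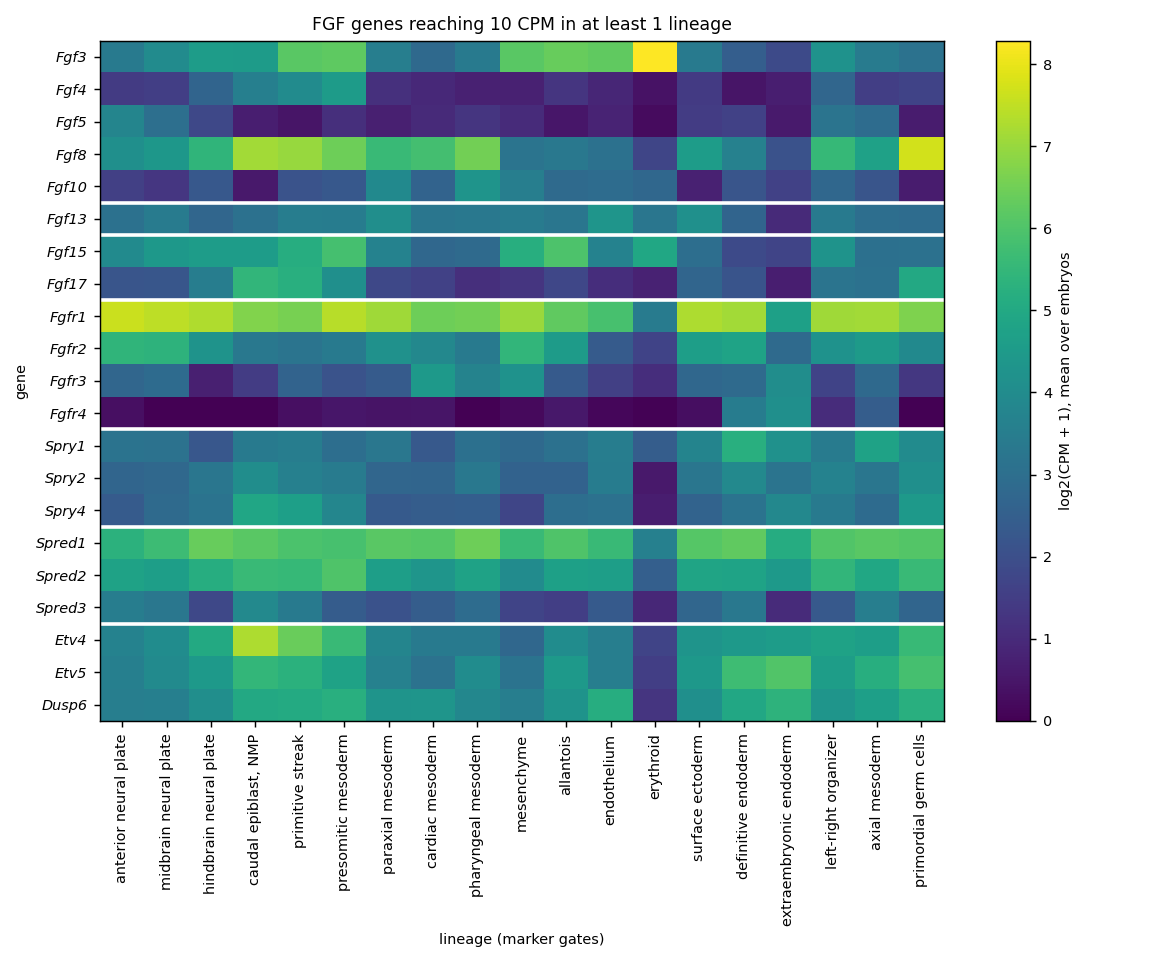
Mean level over embryos, as log2(CPM + 1), of the 21 FGF genes that reached 10 CPM (rows, with white lines between groups of genes by role) in 19 lineages (columns). Fgf8, Fgf17, Etv4 and Spry4 are bright in the caudal lineages, Fgf3 is brightest in erythroid cells, and Fgfr1 is high in most lineages except erythroid cells and extraembryonic endoderm.

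The upstream sequences of 4 ligand genes with unlike lineage patterns are shown before their values. Fgf3 and Fgf4 are neighbours on chromosome 7 (GRCm38, Fgf3 at chr7:144838083-144844436 and Fgf4 at chr7:144847367-144865243, both on the plus strand, 2930 bases apart), and Fgf15 follows 31287 bases further on at chr7:144896531-144900953. Fgf5 lies at chr5:98254184-98277030 and Fgf10 at chr13:118669791-118792115, both on the plus strand. Each sequence is the 250 bases before the RefSeq start site in GRCm38.p6, on the plus strand, at chr7:144838362-144838611, chr7:144861136-144861385, chr5:98253934-98254183 and chr13:118714449-118714698. Capitals mark the letters CCGGAA (a longer form of the GGAA core that ETS factors bind) and GGGCGG (the GC box). Both were searched on both strands, so that the reverse complements TTCCGG and CCGCCC are also in capitals. The shorter GGAA was not searched and is not marked.
Fgf3: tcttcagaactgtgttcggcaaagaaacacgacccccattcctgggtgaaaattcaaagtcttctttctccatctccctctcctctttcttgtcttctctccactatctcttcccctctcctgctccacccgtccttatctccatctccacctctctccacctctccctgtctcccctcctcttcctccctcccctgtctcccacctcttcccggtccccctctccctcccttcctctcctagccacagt
Fgf4: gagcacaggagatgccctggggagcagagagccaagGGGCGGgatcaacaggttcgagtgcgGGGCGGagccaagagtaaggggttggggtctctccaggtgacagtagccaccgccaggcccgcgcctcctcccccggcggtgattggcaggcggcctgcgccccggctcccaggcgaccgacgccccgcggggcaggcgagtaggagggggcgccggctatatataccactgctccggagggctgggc
Fgf5: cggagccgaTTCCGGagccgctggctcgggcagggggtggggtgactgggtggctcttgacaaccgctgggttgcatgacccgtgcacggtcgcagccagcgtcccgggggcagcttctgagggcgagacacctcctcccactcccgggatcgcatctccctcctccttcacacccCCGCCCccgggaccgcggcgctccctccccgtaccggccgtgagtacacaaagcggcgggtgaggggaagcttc
Fgf10: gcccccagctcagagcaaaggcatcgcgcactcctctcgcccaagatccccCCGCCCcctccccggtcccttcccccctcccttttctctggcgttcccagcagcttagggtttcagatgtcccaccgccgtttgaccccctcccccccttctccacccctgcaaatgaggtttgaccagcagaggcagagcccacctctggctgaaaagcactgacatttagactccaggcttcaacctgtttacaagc
The Fgf3 window held neither CCGGAA nor a GC box, and the Fgf4 window held 2 GC boxes. Of the 36 genes, 26 were in the RefSeq table. These 26 genes had 34 windows. The letters CCGGAA were found in 3 of the 34 windows and a GC box in 22, against 12.03% and 32.7% of all 32851 windows of this length. The Fgf3, Fgf4 and Fgf10 windows lie inside the longer gene models of the GENCODE annotation. These are matches of letters and not measured binding sites.

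Fgf8 and Fgf17 were among the ligands that were high at the caudal end of the embryo. Fgf8, a ligand needed for gastrulation movements, lies at chr19:45736798-45742915 on the minus strand. In caudal epiblast with neuromesodermal progenitors, the progenitors of spinal cord and trunk mesoderm, Fgf8 stood at 115.7, 168.6 and 135.1 CPM in embryos 1 to 3 (139.8 ± 26.8, SD, n = 3). In primitive streak cells its level was 113.0, 147.5 and 124.1 CPM, and in presomitic mesoderm, which segments into somites, it was 74.6, 104.9 and 79.1 CPM. Embryo 2 was the highest of the 3 in each of these lineages, and the ranges of caudal epiblast and primitive streak overlapped. Against the mean of the other 18 lineages, Fgf8 was higher by 2.52 ± 0.16 (log2, SE) in caudal epiblast, 2.36 ± 0.21 in primitive streak and 1.80 ± 0.15 in presomitic mesoderm (edgeR quasi-likelihood test, Benjamini-Hochberg adjusted p of 4.13e-18, 1.43e-12 and 1e-13). A UMI of Fgf8 was seen in 84.9% ± 6.5 of caudal epiblast cells and, with every cell thinned to 5000 UMIs, in 49.1%. In thinned erythroid cells, the lineage with least Fgf8, the share was 0.618%, at a level of 2.33 CPM.

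The highest Fgf8 level of all was in primordial germ cells, with 186.2, 204.9 and 239.4 CPM, and no embryo of any other lineage reached this range. The difference from the other lineages was 3.11 ± 0.22 (log2, SE; edgeR adjusted p = 1.73e-15). Germ cells also held Fgf17 at 25.3, 51.2 and 16.0 CPM and the highest level of Fgf18, 7.45, 10.2 and 6.38 CPM, from 12 UMIs. The summed level of the 8 caudal epiblast markers was 332 to 471 CPM in these cells, against 957 to 1126 CPM in caudal epiblast itself, while their own 6 markers summed to 553 to 626 CPM. The part of those markers in the Fgf8 level was not tested.

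Fgf17, a close relative of Fgf8, had a narrower range. Its levels were 36.0, 59.8 and 32.1 CPM in caudal epiblast, 26.9, 50.9 and 32.5 CPM in primitive streak and 11.1, 22.2 and 16.3 CPM in presomitic mesoderm. These 3 ranges followed the order of Fgf8, and the range of presomitic mesoderm lay below that of the others. Outside the caudal lineages, hindbrain and germ cells, no lineage mean of Fgf17 reached 10 CPM, and in paraxial mesoderm it was 2.46 ± 1.17 CPM. The test gave 3.49 ± 0.22 (log2, SE) for caudal epiblast (edgeR adjusted p = 2.57e-18).

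Fgf4 had its peak further along the path to mesoderm. It stood at 24.6, 22.2 and 20.2 CPM in presomitic mesoderm, at 20.5, 12.3 and 12.2 CPM in primitive streak and at 10.5, 15.5 and 7.04 CPM in caudal epiblast. The presomitic values lay above all of those of caudal epiblast, and overlapped those of primitive streak. In the left-right organizer the level was 3.96, 7.82 and 5.02 CPM, and in no other lineage with 3 embryos did the mean pass 2.17 CPM. A UMI of Fgf4 was seen in 31.4% ± 8.5 of presomitic cells and, after thinning, in 11.8%, against 0.351% of thinned extraembryonic endoderm cells.

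Fgf3, a ligand known from the ear and the tail bud, was highest where Fgf8 was lowest. Erythroid cells had 187.6 CPM in embryo 2 and 434.0 CPM in embryo 3, with no value for embryo 1, and both exceeded the level of every other lineage in any embryo. The difference from the other lineages was 4.47 ± 0.17 (log2, SE, n = 2; edgeR adjusted p = 2.7e-27), in a comparison in which the median of all genes was shifted by -0.13. This SE rests on a spread shared by all lineages and not on the gap between these 2 embryos alone. In these cells 89.9% held a UMI, and 69.2% after thinning, against 1.02% of thinned extraembryonic endoderm cells. On a second level stood allantois (100.6, 58.5 and 86.0 CPM), endothelium (74.7, 41.4 and 109.7 CPM), presomitic mesoderm (84.2, 70.8 and 68.8 CPM), mesenchyme (66.7, 54.9 and 92.8 CPM) and primitive streak (76.1, 71.98 and 64.9 CPM). The ranges of these 5 lineages overlapped. Each of the 5 passed the test against the mean of the other lineages, and none did when its sum was set against the sum of all other assigned cells of the embryo (adjusted p of 0.0559 to 0.188). Caudal epiblast, with 18.9, 27.2 and 21.6 CPM, lay below all 5.

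Fgf15, the mouse counterpart of human FGF19, shared most of this pattern without the erythroid peak. Allantois had 85.6, 46.7 and 53.4 CPM, presomitic mesoderm 67.7, 50.6 and 49.3 CPM, and mesenchyme 35.4, 29.0 and 42.3 CPM. In erythroid cells the level was 34.7 and 24.3 CPM, which overlapped the range of mesenchyme. Allantois and presomitic mesoderm did not differ beyond their spread. Both were above the mean of the other lineages, by 2.24 ± 0.14 and 2.14 ± 0.13 (log2, SE; edgeR adjusted p of 6.3e-19 and 2.45e-18). In endothelium, where Fgf3 was high, Fgf15 reached 16.2, 7.02 and 12.3 CPM.

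The remaining ligands above 10 CPM, Fgf5 and Fgf10, were highest in other lineages, and were called higher in 4 and 6 lineages. Fgf5, a ligand of the epiblast, was highest in anterior neural plate with 13.7, 11.2 and 13.1 CPM (3.35 ± 0.20, log2, SE; edgeR adjusted p = 2.93e-19). It was followed by the left-right organizer (5.44, 6.08 and 12.7 CPM), midbrain neural plate (12.2, 5.96 and 3.55 CPM) and axial mesoderm (5.79, 6.27 and 7.96 CPM), whose ranges overlapped. A UMI of Fgf5 was seen in 27.7% ± 7.9 of anterior neural cells and in 7.50% after thinning, against 0.178% of thinned erythroid cells. Fgf10, a ligand of mesenchyme that acts on epithelia, was highest in pharyngeal mesoderm with 23.1, 19.0 and 13.1 CPM and in paraxial mesoderm with 15.7, 12.2 and 14.6 CPM (2.46 ± 0.23 and 2.07 ± 0.19, log2, SE; edgeR adjusted p of 2.98e-12 and 1.07e-12). Fgf10 was also called higher in mesenchyme (1.65 ± 0.21), erythroid cells (0.99 ± 0.27), endothelium (0.94 ± 0.25) and allantois (0.78 ± 0.24), with edgeR adjusted p of 1.03e-08 to 0.0105. In pharyngeal mesoderm 29.0% ± 9.8 of cells had a UMI of Fgf10, and 7.47% after thinning, against 0.181% of thinned caudal epiblast cells. In the same cells Fgf8 stood at 79.3, 115.5 and 78.1 CPM, which overlapped the range of presomitic mesoderm.

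**Figure D2:**
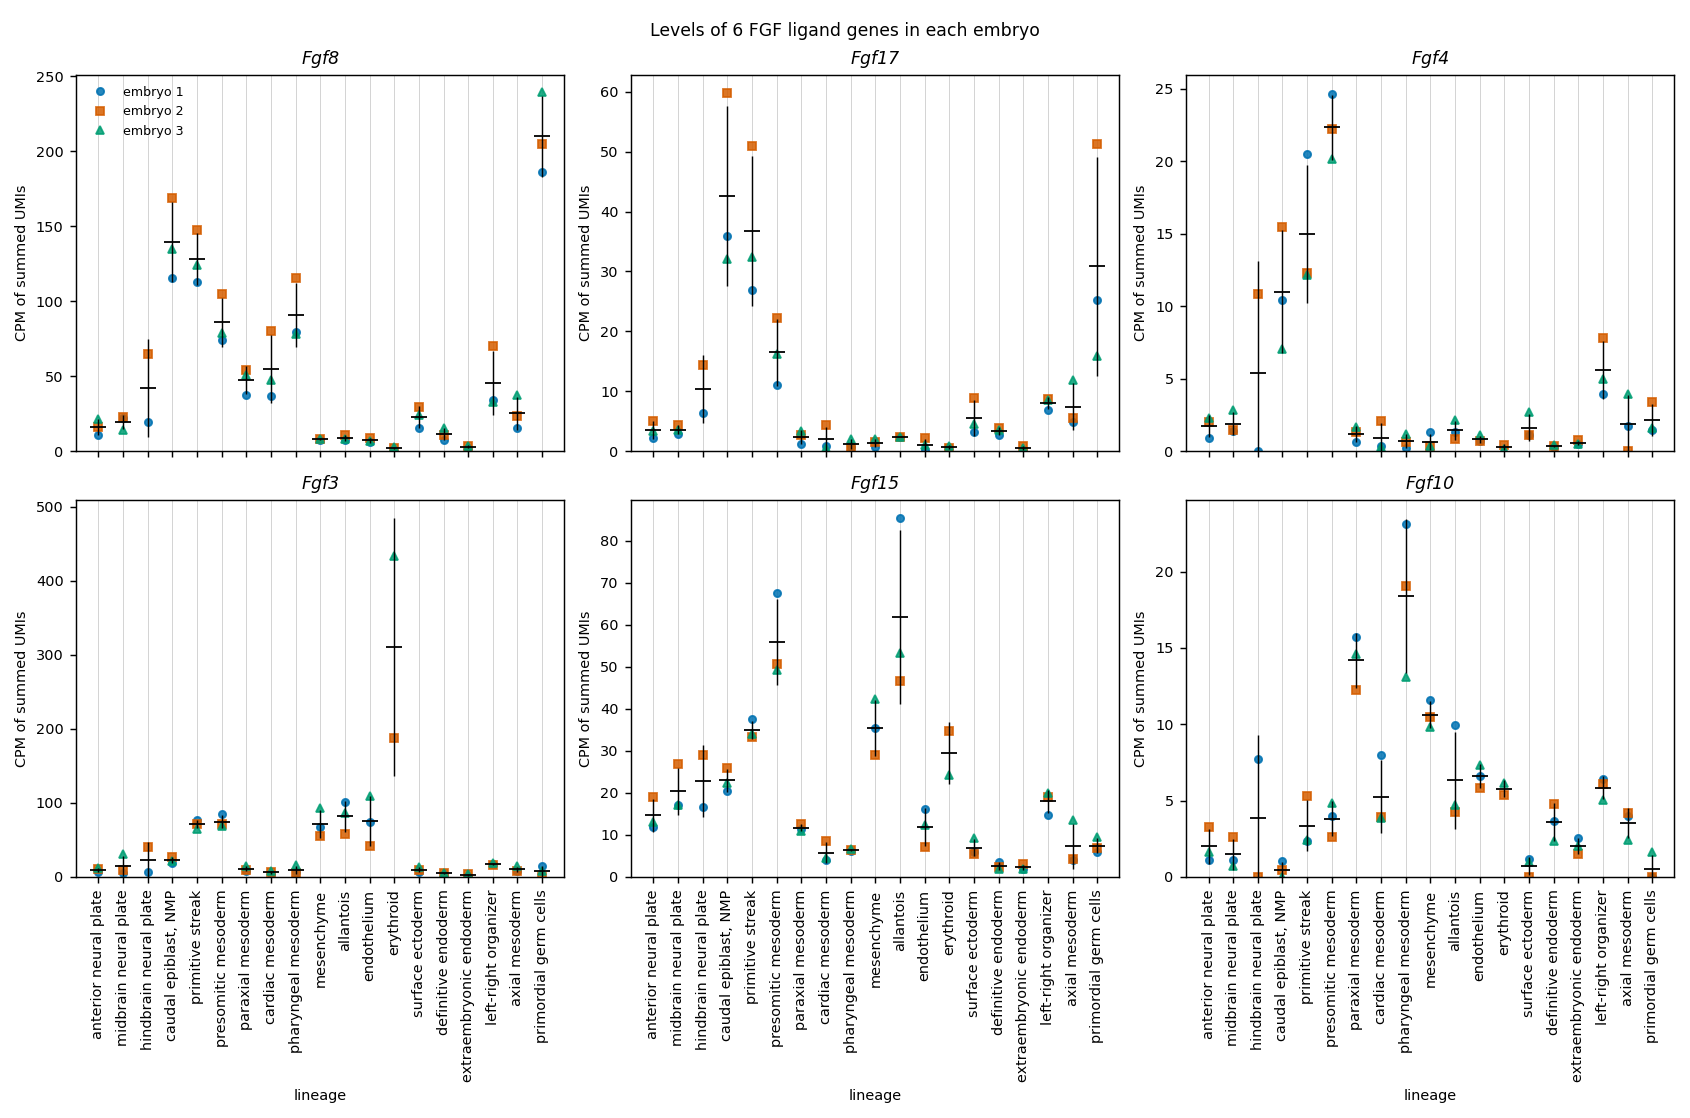
Level of 6 ligand genes (CPM of summed UMIs, linear axes from 0, 1 panel per gene) in each of 19 lineages. Points are embryos, the black dash is the mean and the bar the SD (n = 3, and n = 2 for erythroid and hindbrain cells); Fgf3 reaches 434.0 CPM in erythroid cells of embryo 3, and Fgf8 stays at 2.33 CPM on average there.

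Of the intracellular homologous factors, which are not secreted and bind sodium channels, Fgf13 was found in every lineage. It ranged from 0.969 ± 0.103 CPM in extraembryonic endoderm to 27.9, 12.6 and 16.8 CPM in endothelium, with 18.1, 16.3 and 16.7 CPM in surface ectoderm. Extraembryonic endoderm was lower than the other lineages by 3.03 ± 0.22 on the log2 scale (SE, with a fold change of -3.03; edgeR adjusted p = 4.81e-17). Fgf14 was at or under 0.675 CPM on average except in axial mesoderm (7.13, 6.27 and 3.18 CPM), definitive endoderm (3.03, 4.77 and 1.63 CPM) and the left-right organizer (1.98, 1.74 and 2.32 CPM).

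Fgfr1, the main receptor of early mesoderm, passed 10 CPM in 18 of 19 lineages. It was highest in anterior neural plate (216.5, 175.0 and 201.6 CPM), midbrain neural plate (199.6, 158.3 and 167.7 CPM) and presomitic mesoderm (193.6, 137.3 and 167.8 CPM), and these ranges overlapped. Its level fell to 28.3, 22.6 and 24.99 CPM in extraembryonic endoderm and to 7.58 and 12.3 CPM in erythroid cells, both below every embryo of the other lineages. The fold changes there were -1.84 ± 0.15 and -3.28 ± 0.23 (log2, SE; edgeR adjusted p of 1.33e-15 and 9.45e-18). The lineage with the highest Fgf3 thus had the lowest level of Fgfr1.

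Fgfr2, the receptor whose epithelial form binds FGF10, stood at 44.9, 37.9 and 46.5 CPM in mesenchyme, 43.2, 39.9 and 43.1 CPM in anterior neural plate and 48.6, 32.8 and 38.4 CPM in midbrain neural plate. The values of these 3 lineages overlapped, and all lay above the definitive endoderm, the next in order, at 29.8, 23.1 and 28.9 CPM. In caudal epiblast Fgfr2 was at 6.59, 8.79 and 11.4 CPM, and its difference from the other lineages was -0.85 ± 0.21 (log2, SE; edgeR adjusted p = 0.00203).

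Fgfr3, the receptor best known from growing cartilage, was highest in cardiac mesoderm (25.3, 19.6 and 18.5 CPM), mesenchyme (18.7, 17.6 and 17.2 CPM), extraembryonic endoderm (17.0, 13.8 and 16.1 CPM) and pharyngeal mesoderm (15.2, 10.8 and 10.0 CPM). Cardiac mesoderm was higher than the other lineages by 2.39 ± 0.15 (log2, SE; edgeR adjusted p = 2.68e-18). Fgfr4, the receptor of liver and muscle precursors, was above 1 CPM in 4 lineages, with 17.4, 15.7 and 16.1 CPM in extraembryonic endoderm, 11.7, 10.3 and 8.40 CPM in definitive endoderm, 6.68, 4.88 and 1.59 CPM in axial mesoderm and 1.98, 0.868 and 0.386 CPM in the left-right organizer. In 5 lineages it had no UMI at all and in the others its mean was 0.461 CPM or less. In the organizer, embryos 2 and 3 lay under the floor of 3 counts (2.61 and 1.16 CPM), as did embryo 3 of axial mesoderm (2.39 CPM). Extraembryonic endoderm, with 238, 1104 and 857 cells, held 130 of 374, 310 of 456 and 248 of 389 Fgfr4 UMIs of the 3 embryos, so the share was lowest where its cells were fewest. In this lineage 28.4% ± 8.5 of cells had a UMI of Fgfr4, or 7.90% after thinning, against 0.527% of thinned presomitic cells. For Fgfr4 in definitive endoderm the fold change was 5.50 ± 0.28 against the mean of the other lineages (log2, SE) and 1.78 against all other assigned cells.

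As a share of the UMIs of the 4 receptor genes, which count transcripts by 1 end and are not scaled to length, Fgfr1 made up 92.7% in presomitic mesoderm, 90.4% in caudal epiblast and 67.9% in mesenchyme. In extraembryonic endoderm the shares of Fgfr1, Fgfr2, Fgfr3 and Fgfr4 were 39.7%, 9.83%, 24.5% and 25.9%. No other lineage had less than 67.9% Fgfr1.

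**Figure D3:**
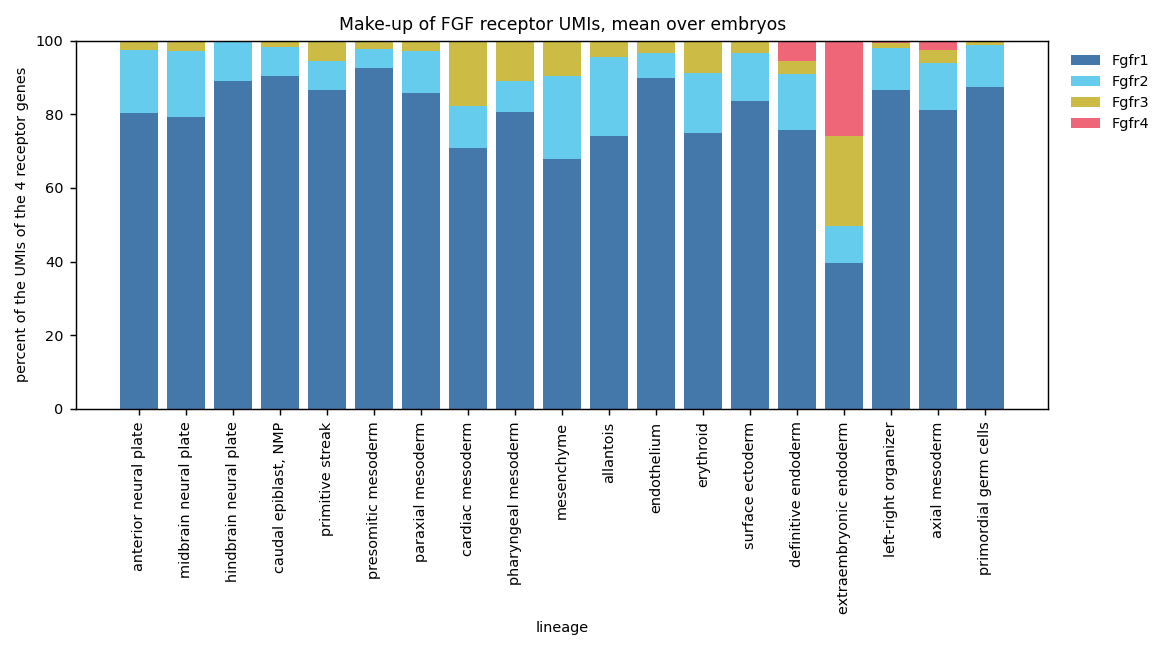
Percent of the UMIs of the 4 receptor genes that came from each gene, as the mean over embryos, in 19 lineages; each bar sums to 100%. Fgfr1 makes up 92.7% in presomitic mesoderm and 39.7% in extraembryonic endoderm, where Fgfr3 and Fgfr4 make up 24.5% and 25.9%.

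Among the response genes, Etv4 was most strongly raised in the caudal lineages. Caudal epiblast had 151.0, 169.9 and 137.7 CPM, primitive streak 94.3, 84.3 and 68.2 CPM and presomitic mesoderm 45.5, 54.9 and 45.2 CPM. These 3 ranges did not overlap, and the order was the same in each embryo. The share of all genes without overlap was not counted. The differences from the other lineages were 3.15 ± 0.12, 2.20 ± 0.17 and 1.41 ± 0.13 (log2, SE; edgeR adjusted p of 2.44e-27, 3.27e-14 and 5.67e-13). Etv4 was also higher in germ cells, by 1.25 ± 0.27, and in extraembryonic endoderm, by 0.51 ± 0.14 (edgeR adjusted p of 0.000796 and 0.000789). A UMI of Etv4 was seen in 91.8% ± 4.4 of caudal epiblast cells, in 56.7% after thinning and in 1.18% of thinned erythroid cells. In pharyngeal mesoderm, with Fgf8 at 91.0 CPM on average, Etv4 stood at 7.09, 9.52 and 11.6 CPM, below the other lineages by 1.11 ± 0.23 on the log2 scale (a fold change of -1.11; edgeR adjusted p = 0.000353).

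Etv5 and Dusp6 both had their highest mean in extraembryonic endoderm. Etv5 was at 66.9, 60.7 and 68.4 CPM in extraembryonic endoderm, 59.6, 64.9 and 46.3 CPM in germ cells, 51.4, 48.7 and 54.2 CPM in definitive endoderm and 52.4, 40.6 and 37.8 CPM in caudal epiblast. The difference from the other lineages was 2.11 ± 0.10 in extraembryonic endoderm and 1.28 ± 0.13 in caudal epiblast (log2, SE; edgeR adjusted p of 2.9e-24 and 1.04e-10). Dusp6, which removes phosphate from ERK, was at 40.8, 43.5 and 35.1 CPM in extraembryonic endoderm, 37.5, 40.2 and 31.0 CPM in presomitic mesoderm and 45.2, 35.8 and 22.7 CPM in endothelium. Its 5 highest lineages overlapped, and erythroid cells were lowest at 1.21 and 1.68 CPM. Summed over the 18 secreted ligands, extraembryonic endoderm had 13.04 ± 2.20 CPM, the least of all lineages, against 245 ± 54 CPM in caudal epiblast.

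The Sprouty genes were highest in different lineages, with some raised lineages shared between them. Spry4 was highest in caudal epiblast (28.0, 33.9 and 24.6 CPM) and primitive streak (28.1, 26.3 and 18.7 CPM), with 13.2, 12.7 and 14.5 CPM in extraembryonic endoderm. Spry1 was highest in definitive endoderm (41.5, 40.2 and 26.4 CPM) and axial mesoderm (26.3, 32.7 and 20.7 CPM), whose ranges overlapped, and stood at 9.65 ± 4.68 CPM in caudal epiblast. Spry2 was less regional, with 18.4, 13.4 and 14.96 CPM in caudal epiblast and 17.4, 11.1 and 13.5 CPM in definitive endoderm. Its highest mean was in germ cells (16.3 CPM). All 3 passed the test, with 2.18 ± 0.15 for Spry4 in caudal epiblast, 2.02 ± 0.15 for Spry1 in definitive endoderm and 1.19 ± 0.15 for Spry2 in caudal epiblast (log2, SE; edgeR adjusted p of 1.28e-16, 3.05e-16 and 2.49e-08). In germ cells Spry2 was higher by 1.24 ± 0.30 and Spry4 by 1.73 ± 0.31 (edgeR adjusted p of 0.00254 and 4.66e-05). Spry3 had 238 UMIs in all, and its highest lineage mean was 1.535 CPM, in extraembryonic endoderm.

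Of the Spred genes, which block the activation of RAF, Spred1 was the most even: outside erythroid cells (11.3 ± 2.5 CPM) its lineage means ran from 33.8 CPM in extraembryonic endoderm to 85.9 CPM in pharyngeal mesoderm. Spred2 was highest in presomitic mesoderm, with 73.9, 58.2 and 56.0 CPM, above every embryo of caudal epiblast (51.9, 49.0 and 42.7 CPM). Spred3 was highest in caudal epiblast with 11.5, 12.97 and 17.2 CPM, followed by axial mesoderm and anterior neural plate at 10.6 ± 1.3 and 10.4 ± 1.0 CPM. The tests gave 1.28 ± 0.09 for Spred2 in presomitic mesoderm and 1.69 ± 0.19 for Spred3 in caudal epiblast (log2, SE; edgeR adjusted p of 3.31e-17 and 4.87e-10).

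**Figure D4:**
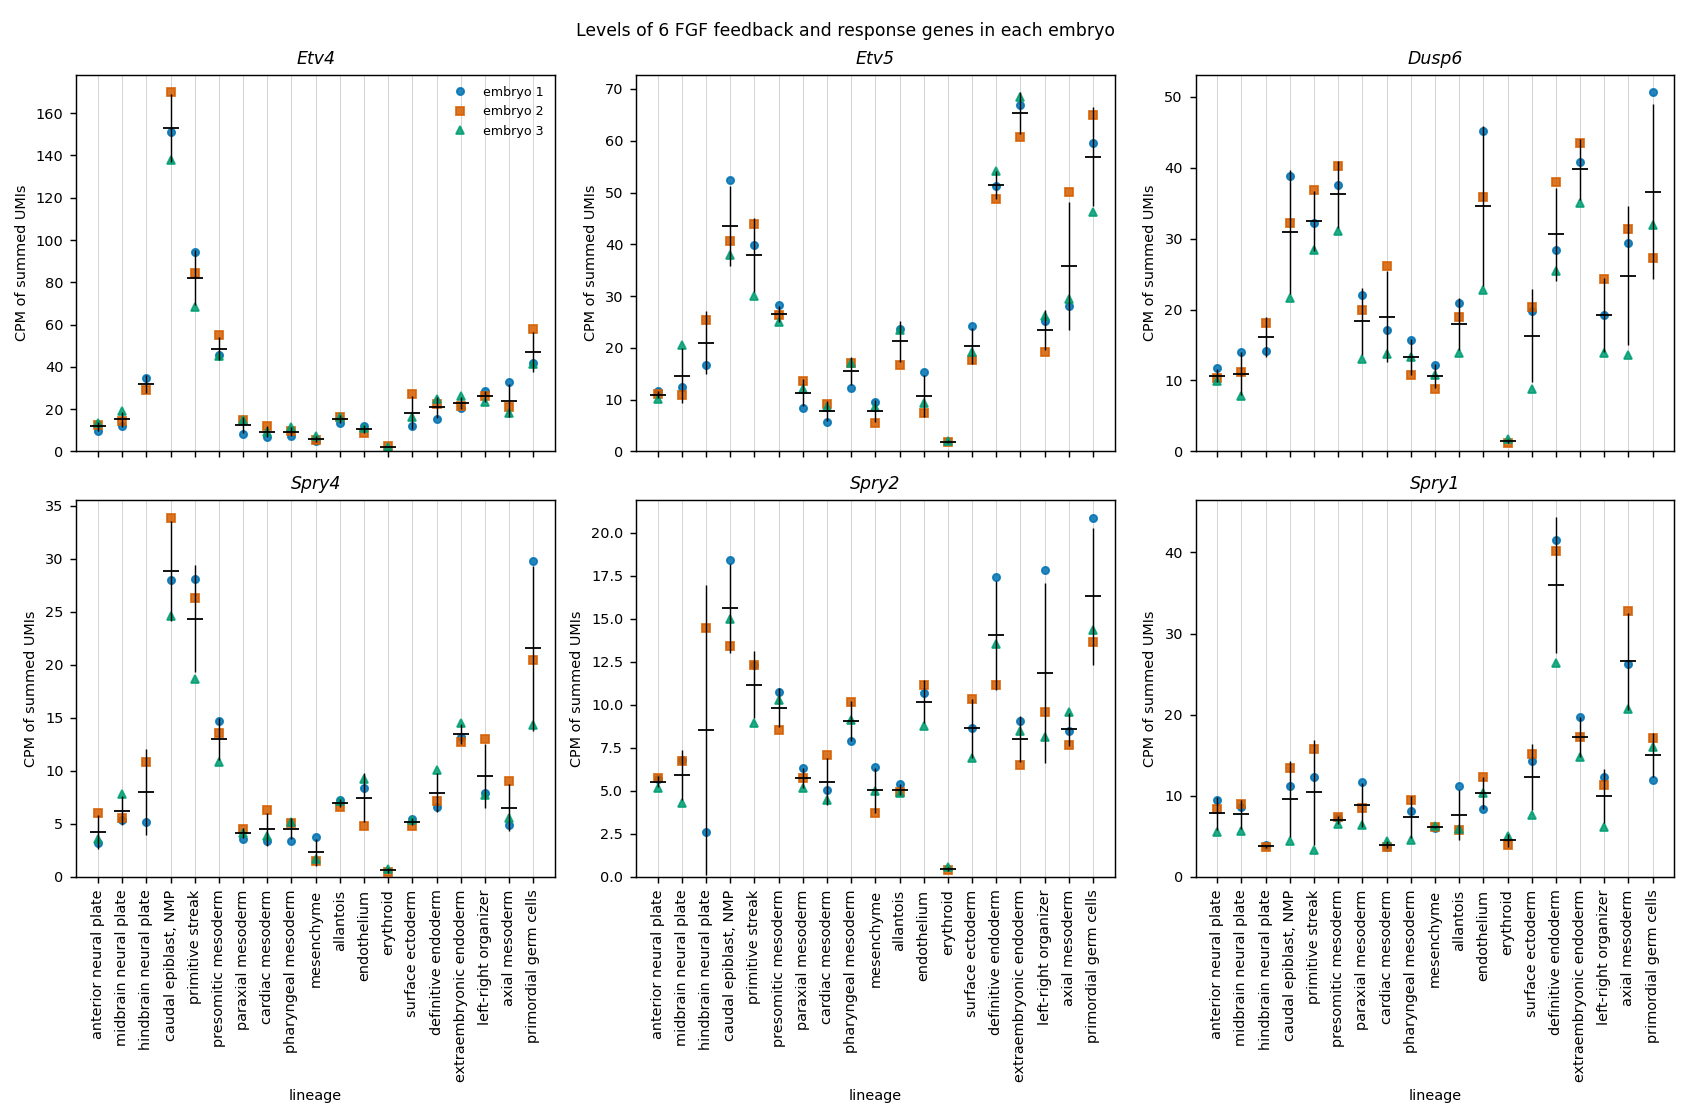
Level of 6 feedback and response genes (CPM of summed UMIs, linear axes from 0, 1 panel per gene) in each of 19 lineages. Points are embryos, the black dash is the mean and the bar the SD (n = 3, and n = 2 for erythroid and hindbrain cells); Etv4 peaks in caudal epiblast at 137.7 to 169.9 CPM, while Etv5 and Dusp6 are also high in extraembryonic endoderm.

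Counted over all 27 members that passed the filter on low counts, presomitic mesoderm and caudal epiblast had the most members above the mean of the others. Presomitic mesoderm had 14 members higher and 1 lower, in a comparison in which 12.6% of 14105 genes were called higher and 6.85% lower. Caudal epiblast had 13 higher and 3 lower (10.6% and 7.56% of all genes), and primitive streak 11 higher (4.4% of all genes). No member was lower in primitive streak with edgeR (2.18% of all genes were), against 1 at an unadjusted p and 1 with DESeq2. Germ cells had 9 higher (6.97% of all genes) and none lower (6.36% of all genes), against 1 lower at an unadjusted p and none with DESeq2. The median fold change of the members was 0.79 in presomitic mesoderm, 0.67 in caudal epiblast and 0.79 in primitive streak on the log2 scale.

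At the other end, erythroid cells had 17 members lower and 4 higher, of which Fgf3, Fgf10 and Fgf15 were named above. There 29.9% of all genes were lower and 29.8% higher, and the median of the members was -2.15 (log2) against -0.13 over all genes. Extraembryonic endoderm had 14 lower and 9 higher (31% and 38% of all genes). In definitive endoderm 11 members were higher and 5 lower (25.3% and 16.6% of all genes), in the left-right organizer 11 and 1 (20.8% and 14.1%), and in anterior neural plate 6 and 8 (15.3% and 10.8%). Allantois had 5 higher and 6 lower (17.2% and 12.1% of all genes), endothelium 5 and 8 (24.1% and 18%), mesenchyme 6 and 11 (19.8% and 11.1%), paraxial mesoderm 7 and 5 (12% and 7.1%), and axial mesoderm 10 and 2 (17.9% and 12.5%). The higher members of definitive endoderm, the organizer and axial mesoderm include Fgf14, Fgf16 and Fgfr4, which had no UMI in 2, 9 and 5 lineages. Fgf14 also counts in anterior neural plate, and Fgfr4 in extraembryonic endoderm. Fgf12 and Fgf22 each had no UMI in 2 lineages. Fgf12 counts as higher in the organizer, paraxial mesoderm and extraembryonic endoderm, and Fgf22 in erythroid cells. Such genes are set against a mean that includes lineages without counts, so these calls carry little weight in the counts. Pharyngeal mesoderm had 4 higher and 4 lower (8.22% and 5.3% of all genes), cardiac mesoderm 3 and 6 (12.4% and 6.49%) and surface ectoderm 4 and 3 (10.3% and 3.67%). Midbrain neural plate had 5 higher (8.32% of all genes), and none lower with edgeR (5.25% of all genes), against 3 lower at an unadjusted p and 1 with DESeq2. In hindbrain neural plate, with 2 embryos, no member was called (1.4% of all genes were higher and 0.638% lower). At an unadjusted p, edgeR called 2 higher and 1 lower there, and DESeq2 called 1 higher after adjustment. For each gene, all lineages shared 1 estimate of the spread between embryos, from 3 embryos per lineage, or 2 for erythroid and hindbrain cells. These p-values therefore do not measure the spread within the named lineage alone, and sums of 1 embryo share its library. Fgfr4 was called higher in the left-right organizer against the mean of the others (2.00, log2) and lower against all other assigned cells (-1.80), so no direction is given for it there.

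Neighbouring lineages were compared pair by pair in the same fit. Between caudal epiblast and presomitic mesoderm, consecutive states of trunk progenitors, 6 members were higher in caudal epiblast (3.91% of all genes were) and 5 lower (4.86%). Etv4 (1.65 ± 0.18), Spred3 (1.66 ± 0.25), Fgf17 (1.38 ± 0.30), Spry4 (1.12 ± 0.20), Etv5 (0.73 ± 0.18) and Spry2 (0.67 ± 0.19) were higher (log2, SE; edgeR adjusted p of 1.43e-09 to 0.0169). Fgf10 (-2.56 ± 0.56), Fgf3 (-1.78 ± 0.33), Fgf15 (-1.33 ± 0.23), Fgf4 (-1.04 ± 0.30) and Fgfr1 (-0.70 ± 0.18) were lower (adjusted p of 2.79e-05 to 0.0184). So the 5 ligands called between these lineages split, with Fgf17 on the epiblast side and Fgf3, Fgf4, Fgf10 and Fgf15 on the mesoderm side. With the embryo as a block, Fgf8 was also higher in caudal epiblast (0.68 ± 0.23, adjusted p = 0.0546 without the block and 2.65e-05 with it), and Spred2 and Fgfr3 were lower (adjusted p of 0.00311 and 0.0457 with the block). Without embryo 1 or without embryo 3 the count of 11 fell to 7, and Fgf4, Fgfr1 and Spry2 were among the calls lost both times.

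Between presomitic and paraxial mesoderm, 12 members were higher in presomitic mesoderm (5.28% of all genes were) and 3 lower (4.4%). The paraxial markers include Tbx1, at 69.9, 87.1 and 70.8 CPM in that gate. The study reads Tbx1 as a head mesoderm marker, and its own paraxial label covers somitic and head mesoderm. The gate may thus hold cells that do not come from presomitic mesoderm, and their part in these calls was not tested. Of the ligands, Fgf4 was higher in presomitic mesoderm by 4.32 ± 0.36, Fgf3 by 2.86 ± 0.32, Fgf17 by 2.84 ± 0.38, Fgf15 by 2.27 ± 0.22, Fgf9 by 1.39 ± 0.46 and Fgf8 by 0.86 ± 0.23 (log2, SE; edgeR adjusted p of 3.92e-13 to 0.0437). Of the response genes, Etv4 (1.99 ± 0.20), Spry4 (1.70 ± 0.22), Spred2 (1.37 ± 0.13), Etv5 (1.27 ± 0.19), Dusp6 (0.97 ± 0.21) and Spry2 (0.79 ± 0.19) were higher in presomitic mesoderm (adjusted p of 2.22e-11 to 0.00279). Fgf10 (-1.85 ± 0.27), Fgfr2 (-0.85 ± 0.20) and Fgf13 (-0.65 ± 0.19) were higher in paraxial mesoderm (adjusted p of 1.04e-06 to 0.0146). With the embryo as a block, Fgfr1 was higher in presomitic mesoderm (adjusted p = 0.00157) and Spred1 lower (adjusted p = 0.0245).

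The left-right organizer was compared with axial mesoderm, its neighbour in the midline. Fgf15 was higher in the organizer, at 14.8, 19.1 and 20.1 CPM against 4.01, 4.18 and 13.5 CPM (1.43 ± 0.42, log2, SE; edgeR adjusted p = 0.0112). Fgf12 was also called (adjusted p = 0.037), with 12 UMIs in the organizer and 1 in axial mesoderm. Lower in the organizer were Spry1, at 12.4, 11.3 and 6.17 CPM against 26.3, 32.7 and 20.7 CPM (-1.51 ± 0.33, adjusted p = 0.000629), Fgfr4 (-2.18 ± 0.64), Spred3 (-1.25 ± 0.36) and Fgfr3 (-1.38 ± 0.44, adjusted p of 0.0136, 0.0101 and 0.022). Fgfr4 was under the floor of 3 counts in embryos 2 and 3 of the organizer and in embryo 3 of axial mesoderm. In all, 2 members were called higher and 4 lower, where 9.44% of all genes were higher and 7.27% lower. The groups did not overlap for Fgf15, Spry1 and Spred3, but the share of all genes without overlap was not counted. Etv4 stood at 26.1 and 24.1 CPM on average in the 2 lineages. With the embryo as a block, Fgf8, at 34.1, 70.4 and 32.8 CPM against 15.6, 23.7 and 37.4 CPM with overlapping ranges, and Spred2 were also higher in the organizer (adjusted p of 0.0149 and 0.0292). The 5 definitive endoderm markers that are not also axial mesoderm markers summed to 957 to 1499 CPM in axial mesoderm, and all 6 to 279 to 432 CPM in the organizer. The 5 axial mesoderm markers summed to 666 to 856 CPM in axial mesoderm itself and to 864 to 1329 CPM in the organizer. The 8 caudal epiblast markers summed to 914 to 1229 CPM in the organizer and to 957 to 1126 CPM in caudal epiblast itself, and the 7 that are not also axial mesoderm markers to 305 to 461 CPM in axial mesoderm. For the primitive streak list these sums were 617 to 838 CPM (6 markers) and 19.2 to 40.6 CPM (5 markers). Cells that also met the caudal epiblast or primitive streak gate had been placed in the organizer, and the part of these markers in the higher genes, among them Fgf15 and Fgf8, was not tested. The part of the endoderm markers in the 4 lower genes, of which Spry1 and Fgfr4 were high in definitive endoderm, was not tested. The count of 6 fell to 1 without embryo 1 (Spry1 remained), to 2 without embryo 2 (Spry1 and Fgfr3 remained) and to 0 when 1 more marker was asked of every lineage, and Fgfr4 was 0.72 higher in the organizer (adjusted p = 0.88) when markers were read at 5000 UMIs per cell, where none of the 6 calls remained.

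Pharyngeal and cardiac mesoderm, the progenitors and the differentiating cells of the heart, differed in 3 members. Cells that met both gates had been placed in cardiac mesoderm, and the 5 pharyngeal markers not shared with the cardiac list summed to 792 to 875 CPM there, against 624 to 773 CPM for all 6 in pharyngeal mesoderm. The cardiac list summed to 1872 to 4525 CPM in cardiac mesoderm, and its 6 unshared markers to 207 to 283 CPM in pharyngeal mesoderm. The part of these markers in the calls was not tested. Fgf10 was higher in pharyngeal mesoderm, at 23.1, 19.0 and 13.1 CPM against 8.01, 3.93 and 3.83 CPM (1.70 ± 0.32, log2, SE; edgeR adjusted p = 0.000246), and so was Etv5, at 12.3, 17.1 and 17.0 CPM against 5.59, 9.16 and 8.61 CPM (0.97 ± 0.27, adjusted p = 0.0278). Fgfr3 was higher in cardiac mesoderm (-0.83 ± 0.22, adjusted p = 0.0155). In this comparison 0.666% of all genes were called higher and 2.38% lower. The values of Fgf10, Etv5 and Fgfr3 did not overlap between the lineages, but the share of all genes without overlap was not counted. Fgf8 was called only with the embryo as a block (0.67 ± 0.25, adjusted p = 0.208 without it and 0.000816 with it). Without embryo 1 or without embryo 2 the count was 1, and Fgf10 was the call that remained. Between anterior and midbrain neural plate no member was called by edgeR or DESeq2 (0.078% of all genes were higher and 0.0567% lower), and 1 was higher and 1 lower at an unadjusted p. The anterior neural plate markers summed to 482 to 609 CPM in anterior and 190 to 232 CPM in midbrain neural plate. The midbrain markers summed to only 70.8 to 139 CPM in midbrain neural plate itself. The part of these markers in the lack of calls was not tested.

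**Figure D5:**
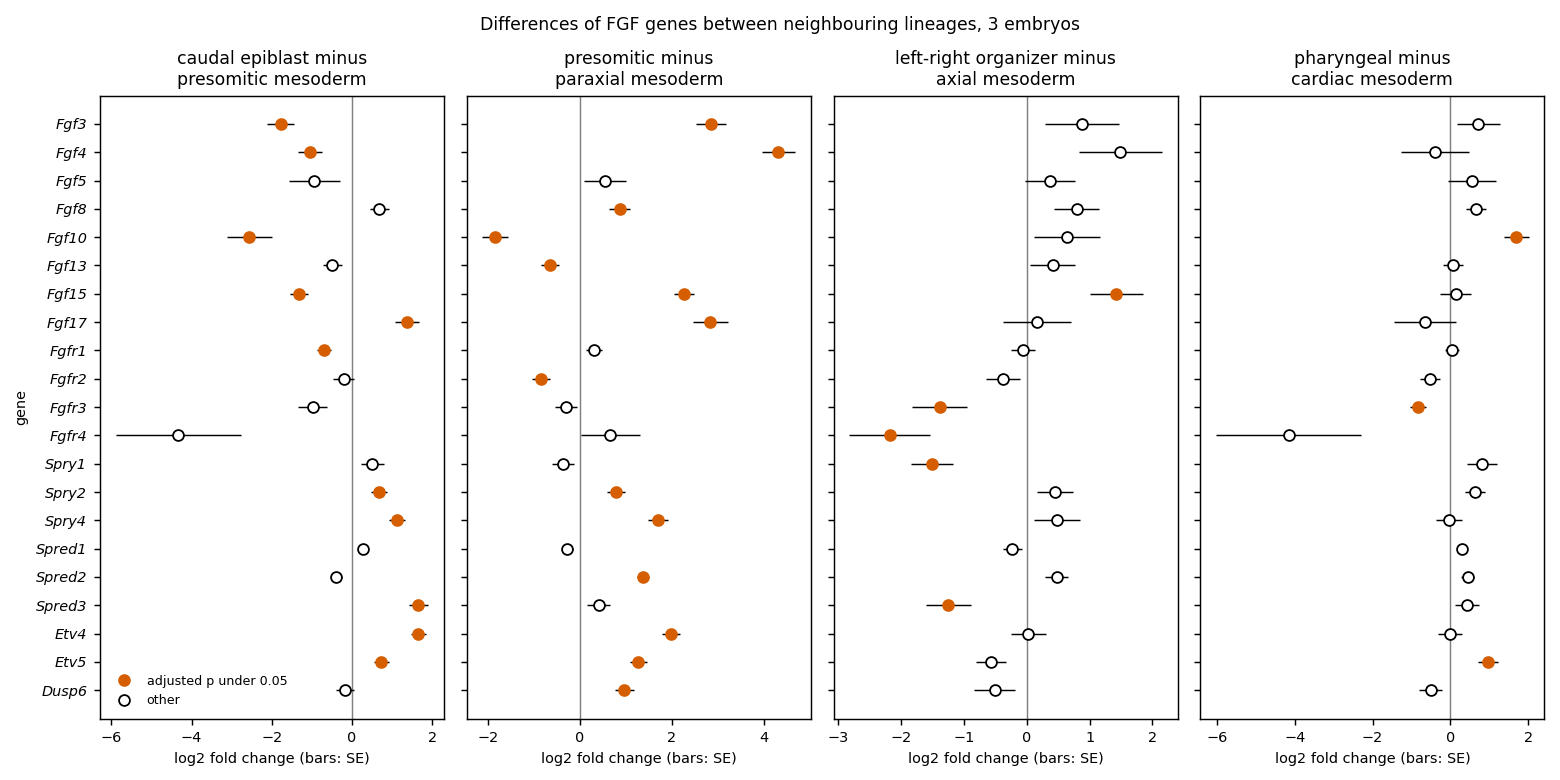
Log2 fold change (points) with its SE (bars) of the 21 FGF genes that reached 10 CPM, in 4 pairs of neighbouring lineages, 1 panel per pair with its own axis. Filled points have an edgeR adjusted p under 0.05; Fgf4 differs by 4.32 between presomitic and paraxial mesoderm, and the long bars of Fgfr4 belong to lineages in which it is at or near 0.

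Of 42 other genes of the pathway, 40 could be tested. Between caudal epiblast and presomitic mesoderm 5 were higher and 6 lower, where 3.91% of all genes were higher and 4.86% lower. Those named by size were Fgfbp3, a carrier that frees bound ligand (38.7 ± 8.4 against 12.4 ± 4.7 CPM), the heparan sulphate proteoglycan Gpc4 (14.96 ± 2.64 against 5.11 ± 0.22 CPM) and the receptor-binding inhibitor Il17rd (44.3 ± 2.8 against 23.0 ± 0.9 CPM), all higher in caudal epiblast, and Gpc3 (121 ± 6 against 338 ± 54 CPM) and the sulphatase Sulf1 (24.6 ± 3.3 against 47.0 ± 10.9 CPM), both lower. Between presomitic and paraxial mesoderm 5 were higher and 4 lower (5.28% and 4.4% of all genes), with Il17rd at 23.0 ± 0.9 against 11.2 ± 1.1 CPM, the phosphatase Dusp4 at 39.6 ± 4.7 against 19.2 ± 0.9 CPM, Gpc4 at 5.11 ± 0.22 against 2.52 ± 1.05 CPM and Fgfbp1 at 3.94 ± 1.81 against 1.25 ± 0.49 CPM. The adhesion protein Flrt2 went the other way, at 2.66 ± 0.56 against 17.6 ± 6.6 CPM. Of the 15 genes of the intracellular relay, Braf and Mapk3 were lower in caudal epiblast than in presomitic mesoderm, and Gab1 and Mapk3 lower in presomitic than in paraxial mesoderm.

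Between the left-right organizer and axial mesoderm 3 of the 40 were higher (Etv1, Ext1 and Myc) and 3 lower (9.44% and 7.27% of all genes), with Fgfbp1 at 3.59 ± 2.19 against 21.3 ± 10.5 CPM and Gpc3 at 233 ± 70 against 401 ± 122 CPM. Between pharyngeal and cardiac mesoderm Gpc1 (29.3 ± 4.1 against 16.1 ± 2.6 CPM) and Il17rd (27.6 ± 1.9 against 15.2 ± 5.6 CPM) were the 2 genes called, both higher (0.666% of all genes were). All the genes named by size had an edgeR adjusted p of 0.0408 or less.

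Across the means of the 19 lineages, the ligand most like Etv4 in rank was Fgf17 (Spearman's rho 0.84, and 0.78 to 0.86 within single embryos). It was ahead of Fgf4 (0.78, but 0.58 to 0.69 within single embryos) and Fgf8 (0.56). Spry4 ranked most like Etv4 of all named members (0.90, and 0.79 to 0.90 within single embryos). Fgf3 and Fgf15 ranked alike (0.87, and 0.75 to 0.88 within embryos). Lineages share libraries and differ in depth, so these values are descriptions over 19 points.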

How the data were processed

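Single-cell libraries of 3 embryos (10x Genomics 3′ chemistry, v3) were aligned to mm10 by the authors with Cell Ranger 3.1.0, per the submitters' processing notes, and the counts used here are the UMI counts per gene and barcode that they deposited, without normalization. Barcodes with 1500 to 8500 genes (7500 in embryo 2) and 0.5% to 10% mitochondrial UMIs were kept, which left 5795, 7956 and 7844 cells. The gene limits and the mitochondrial maximum follow the study, and the mitochondrial minimum stands in for its removal of clusters with little mitochondrial RNA. The limits and the order of precedence of the marker gates were set after the marker distributions had been seen, and the FGF genes and lists were chosen with earlier results of these data known. Doublets were not removed, except in an alternative that left out the 6% of cells with the highest Scrublet score.

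UMIs were summed per embryo and lineage where at least 10 cells were present. The sums were tested with edgeR 4.0.16 (quasi-likelihood, TMM scaling, filterByExpr, R 4.3.3), each lineage against the mean of the other lineages and 5 pairs of neighbours, with Benjamini-Hochberg adjustment over 14105 genes and a threshold of 0.05. Of the 36 members, 27 passed the filter. The ± values are SDs over embryos or SEs of the fit, in which all lineages shared 1 estimate of the spread per gene. The floor of 3 counts covers counting error only. Where embryo ranges are said to overlap or not, the share of all genes without overlap was not counted. Members with a mean of at least 10 CPM in a lineage are described by embryo, and of 42 other pathway genes the 5 with the largest called fold change and 1 sign in every embryo are named in each pair. Lineages of 1 embryo come from the same animal, and their deviations from the lineage means correlated by 0.131 to 0.619 in the compared pairs, so a fit with the embryo as a block was also made. Other alternatives were DESeq2 1.42.0 size factors and test, no filter, leaving out each embryo, stricter marker limits, markers read at 5000 UMIs per cell, no mitochondrial minimum, at least 25 cells per sum, and, chosen after seeing the data, each lineage against all other assigned cells of its embryo. The count test was tried on simulated data. Gene positions are from GENCODE vM21 and promoter windows from RefSeq. Spry3 had no position there.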

Additional observations from a re-analysis of the deposited data

How the results depend on the processing

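The 117 single tests compared over the alternatives were picked for the text, and 109 of them were called in the main fit. A change of direction was counted only for these 109. None changed direction with DESeq2, without the filter on low counts, without the mitochondrial minimum or without the highest doublet scores. Of the 117, 113, 111, 117 and 116 stayed on their side of the threshold in these 4 settings. With each embryo left out in turn, 17, 11 and 12 calls no longer passed. With 1 more marker asked per lineage 13 of 107 tests no longer passed, and with markers read at 5000 UMIs 18 of 106. Counts of members called between caudal epiblast and presomitic mesoderm were 7 to 11 without 1 embryo (11 with all) and 5 with markers read at 5000 UMIs. Between the left-right organizer and axial mesoderm they were 1 to 4 (6 with all), 0 with stricter markers, and 2 with markers read at 5000 UMIs, where Fgfr4 turned from -2.18 to 0.72 (log2). Between pharyngeal and cardiac mesoderm they were 1 to 2 (3 with all) and 1 with stricter markers. The cause of these changes was not tested. Calls in single lineages were 137 higher and 94 lower, and with the embryo as a replicate block 148 and 109, with no call lost among the single tests. Against all other assigned cells 150 were lower, and of 231 calls 184 still passed and 230 kept their direction, the exception being Fgfr4 in the left-right organizer (-1.80). Thinning to 5000 UMIs lowered the share of cells with a UMI to 49.1% (Fgf8) and 56.7% (Etv4) in caudal epiblast, 11.8% (Fgf4 in presomitic mesoderm), 69.2% (Fgf3 in erythroid cells), 7.50% (Fgf5 in anterior neural plate), 7.47% (Fgf10 in pharyngeal mesoderm) and 7.90% (Fgfr4 in extraembryonic endoderm). The pair of anterior and midbrain neural plate could not be run with stricter markers or markers read at 5000 UMIs, because too few midbrain cells were left. Hindbrain neural plate was also missing from both settings. Primitive streak was missing with stricter markers, and primordial germ cells with markers read at 5000 UMIs. Germ cells and hindbrain were missing with at least 25 cells per sum. The results of these lineages were not checked there. Depth limits the lowest levels, and genes under 10.9 CPM could go unseen in the shallowest sum.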
